A study of Mus musculus with 6 samples.

Results

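The 10 genes described here encode transcription factors that specify midbrain dopamine neurons and keep their identity. They are Nr4a2, Pitx3, En1, En2, Foxa1, Foxa2, Lmx1a, Lmx1b, Otx2 and Sox6, and they were taken by symbol from the 22180 genes with a probe set of their own. Each of the 10 had exactly 1 probe set, the group of probes on the array that reads a gene, so no choice between probe sets was needed. RNA came from the ventral midbrain of male mice 2 months old, the region that holds the substantia nigra and the ventral tegmental area. The groups were 3 arrays labelled Bach1 knockout (Bach1 KO) and 3 labelled wild type, and the comparison asked which transcripts differ when Bach1, a heme-binding transcriptional repressor, is knocked out. The labels give no strain, knockout allele or Cre, and do not say whether a replicate was 1 animal or a pool, so p-values measure only the spread between these samples.

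Dopamine neurons arise from the floor plate of the midbrain. There, the forkhead factors Foxa1 and Foxa2, the LIM homeodomain factors Lmx1a and Lmx1b and the homeodomain factor Otx2 set the progenitor state. The engrailed factors En1 and En2, the orphan nuclear receptor Nr4a2 (Nurr1) and the homeodomain factor Pitx3 then act in the neurons after their last division. Nr4a2 and Pitx3 switch on genes of dopamine synthesis and transport, and most of these factors stay on in the adult, where Sox6 marks mainly neurons of the substantia nigra and Otx2 mainly those of the ventral tegmental area.

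Values are log2 levels as deposited, after robust multi-array averaging (RMA), so a step of 1 is a doubling. As a check of the tissue label, the dopamine neuron markers Th and Slc6a3 lay between 11.02 and 12.17 on every array. Array medians lay between 5.58 and 5.69, and Pearson correlations between arrays over probe sets, whose values are not independent of each other, were 0.984 to 0.989. The Bach1 probe set was at 7.59, 7.68 and 7.70 on the knockout-labelled arrays and at 7.46, 7.59 and 7.57 on the wild-type arrays, so it was not lower under the knockout label. Hmox1, a known target of BACH1 repression, was at 8.50, 8.22 and 8.41 against 6.51, 6.46 and 6.32, a log2 fold change of 1.95 (limma, adjusted p = 0.0181). It was 1.88 to 2.06 in 13 other settings, but the call was lost in 8 of them, with the replicate block (adjusted p = 0.544) and whenever 1 or 2 arrays were left out (adjusted p = 0.134 to 0.645). Directions below follow the labels.

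None of the 10 identity factors passed the test between genotypes. At an adjusted p under 0.05 limma called 0 of 10, where 0.00726% of all 41345 probe sets were called. At an unadjusted p under 0.05 the count was also 0 of 10, beside 8.27% of all probe sets. The means of 6 members were higher and those of 4 lower on the knockout-labelled arrays. Their median log2 fold change was 0.050, against -0.0098 over all genes. Adjusted p-values ran from 0.622 to 0.957. The outermost bounds of their 95% intervals were a level 1.52-fold higher for Foxa2 and a level 0.629 times the wild-type one for Lmx1a.

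**Figure D1:**
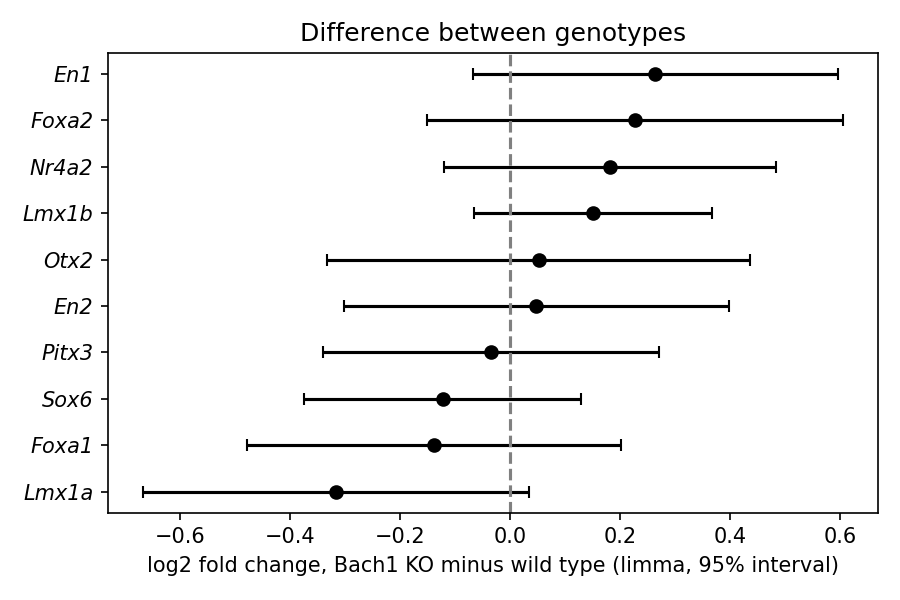
Log2 fold change of each identity factor, Bach1 KO minus wild type, on the horizontal axis, with its 95% interval from limma over 3 arrays per group and a dashed line at 0. Every interval includes 0; Lmx1a lies farthest to the left at -0.32 and En1 farthest to the right at 0.26.

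Foxa1 and Foxa2 are forkhead proteins that open chromatin and act early in the floor plate. Foxa1 was at 7.70, 7.54 and 7.98 on knockout-labelled replicates 1 to 3 and at 7.97, 7.96 and 7.72 on wild-type replicates 1 to 3. The highest and the lowest of these 6 values were both on knockout-labelled arrays, so the groups overlapped over their whole range. The log2 fold change was -0.14 (limma, adjusted p = 0.815, with -0.48 to 0.20 as the 95% interval). Foxa2 was at 7.30, 7.16 and 7.65 against 7.33, 7.08 and 7.02. Knockout-labelled replicate 3 stood highest, while wild-type replicate 1 lay above the other 2 knockout-labelled values. The difference of 0.23 had a 95% interval of -0.15 to 0.61 (adjusted p = 0.728), and without knockout-labelled replicate 3 it was 0.085.

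Lmx1a and Lmx1b are LIM homeodomain paralogs, and both are needed for dopamine progenitors. Lmx1a, the member with the smallest p, was at 5.98, 5.52 and 5.86 on the knockout-labelled and at 6.17, 6.19 and 5.95 on the wild-type arrays. Knockout-labelled replicate 2 was lowest by a wide margin, and knockout-labelled replicate 1 lay just above wild-type replicate 3. Lmx1a means were 5.78 ± 0.24 against 6.10 ± 0.13 (SD, n = 3). The log2 fold change of -0.32, with -0.67 to 0.034 as its 95% interval, had an adjusted p = 0.622 in limma. Without knockout-labelled replicate 2 it was -0.18. Lmx1b was at 7.75, 7.66 and 7.52 against 7.49, 7.47 and 7.52. It was the single member whose groups did not overlap, with all knockout-labelled values above the wild-type ones, as for 7.4% of all probe sets. That separation rests on knockout-labelled and wild-type replicates 3, which are equal to 2 decimals. The log2 fold change was 0.15 (adjusted p = 0.694, with -0.067 to 0.37 as the 95% interval). No member had all knockout-labelled values below the wild-type ones, as 6.86% of probe sets did.

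The promoters of this pair are shown for the member with the smallest p and the member whose groups did not overlap, and BACH1 binds DNA with small Maf partners at antioxidant response elements. The windows hold 250 bases before and 50 after an annotated start (RefSeq, build GRCm38.p6), written 5′ to 3′ on the gene's strand. Capitals mark matches on either strand to the antioxidant response element core TGANNNNGC, the Maf-type core TGACTCA, the NR4A element AAAGGTCA, the homeodomain core TAATTA, the PITX and OTX core TAATCC, the forkhead core TGTTTAC or the SOX core AACAAT. The Maf-type core followed by GC also matches the antioxidant core, TAATTA reads the same on both strands, and TAATTA and TAATCC share their first 4 letters.
Lmx1a, chr1:167689308-167689607, plus strand: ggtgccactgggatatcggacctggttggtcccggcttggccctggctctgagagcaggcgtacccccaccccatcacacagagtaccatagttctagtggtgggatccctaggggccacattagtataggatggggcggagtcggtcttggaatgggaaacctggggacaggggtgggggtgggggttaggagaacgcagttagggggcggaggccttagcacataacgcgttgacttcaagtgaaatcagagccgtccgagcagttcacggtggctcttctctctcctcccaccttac
Lmx1b, chr2:33641049-33641348, minus strand: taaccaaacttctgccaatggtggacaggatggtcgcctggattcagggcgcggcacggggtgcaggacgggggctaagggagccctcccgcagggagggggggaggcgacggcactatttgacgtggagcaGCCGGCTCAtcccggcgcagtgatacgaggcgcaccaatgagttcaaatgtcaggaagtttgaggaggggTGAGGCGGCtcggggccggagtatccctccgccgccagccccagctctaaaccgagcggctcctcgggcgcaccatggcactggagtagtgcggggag
The Lmx1b window holds 2 matches, both to the antioxidant core, at -118 and -48 from the start, and the Lmx1a window holds no match to any of these letters.

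Over the members, 9 of 10 had a window in the table and En2 was not matched. They have 19 windows, because several genes have more than 1 start and 2 windows of Otx2 overlap. The antioxidant core occurred in 7 of the 19, beside 41.3% of all 32851 windows of the same length, and the Maf-type core in 1 of 19, that of En1, beside 5.20%. The NR4A element was in 1 (Sox6) beside 1.51%, TAATTA in 2 (both Otx2) beside 5.29%, TAATCC in 2 (Otx2 and Sox6) beside 7.06%. The forkhead core was in 1 (Foxa1) beside 3.65% and the SOX core in 2 (Nr4a2 and Sox6) beside 10.7%. These are letter matches in short windows and say nothing of binding.

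En1 and En2, the engrailed homeodomain proteins, maintain midbrain dopamine neurons after birth. En1 was at 7.09, 6.84 and 7.30 on the knockout-labelled and at 6.93, 6.72 and 6.80 on the wild-type arrays. Knockout-labelled replicates 1 and 3 were the highest of the 6, and replicate 2 lay within the wild-type range. En1 means were 7.08 ± 0.23 against 6.82 ± 0.10 (SD, n = 3), which differ by 0.26 (limma, adjusted p = 0.655, with -0.068 to 0.60 as the 95% interval). En2 was at 6.45, 6.16 and 6.55 against 6.52, 6.32 and 6.17. Both groups spanned nearly the same range, and the log2 fold change was 0.047 (adjusted p = 0.948, with -0.30 to 0.40 as the 95% interval). The En1 promoter is shown because it holds the Maf-type core, in capitals at -163, and no other match. That core is followed by CG and not by GC, so it does not match the antioxidant core.
En1, chr1:120602237-120602536, plus strand: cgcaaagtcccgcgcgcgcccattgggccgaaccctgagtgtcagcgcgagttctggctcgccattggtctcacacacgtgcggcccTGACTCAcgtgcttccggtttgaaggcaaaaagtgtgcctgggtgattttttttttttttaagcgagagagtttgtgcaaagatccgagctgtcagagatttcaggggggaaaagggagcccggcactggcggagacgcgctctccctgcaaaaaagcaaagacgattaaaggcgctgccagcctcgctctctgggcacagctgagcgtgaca

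Nr4a2 and Pitx3 drive the terminal dopamine program. Nr4a2 was at 8.77, 8.70 and 8.91 on the knockout-labelled and at 8.44, 8.82 and 8.57 on the wild-type arrays. Wild-type replicate 2 lay inside the knockout-labelled range and the other wild-type arrays below it. The log2 fold change was 0.18 (limma, adjusted p = 0.728, with -0.12 to 0.48 as the 95% interval). Pitx3, whose loss in aphakia mice removes most substantia nigra neurons, was at 6.35, 6.19 and 6.29 against 6.34, 6.50 and 6.09. The knockout-labelled values all fell within the wild-type range, with a log2 fold change of -0.035 (adjusted p = 0.957, with -0.34 to 0.27 as the 95% interval).

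Otx2 and Sox6 divide the adult dopamine neurons by region. Otx2 was at 7.07, 6.93 and 7.15 on the knockout-labelled and at 7.21, 7.11 and 6.68 on the wild-type arrays. Wild-type replicate 3 was the lowest of the 6 and wild-type replicate 1 the highest. The log2 fold change of 0.052 (limma, adjusted p = 0.948, with -0.33 to 0.44 as the 95% interval) turned to -0.11 without wild-type replicate 3. Sox6 was at 7.40, 7.17 and 7.44 against 7.55, 7.41 and 7.41. Knockout-labelled replicate 2 was lowest, and the other 5 arrays lay between 7.40 and 7.55. The log2 fold change was -0.12 (adjusted p = 0.778, with -0.37 to 0.13 as the 95% interval), and it was -0.040 without that replicate.

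**Figure D2:**
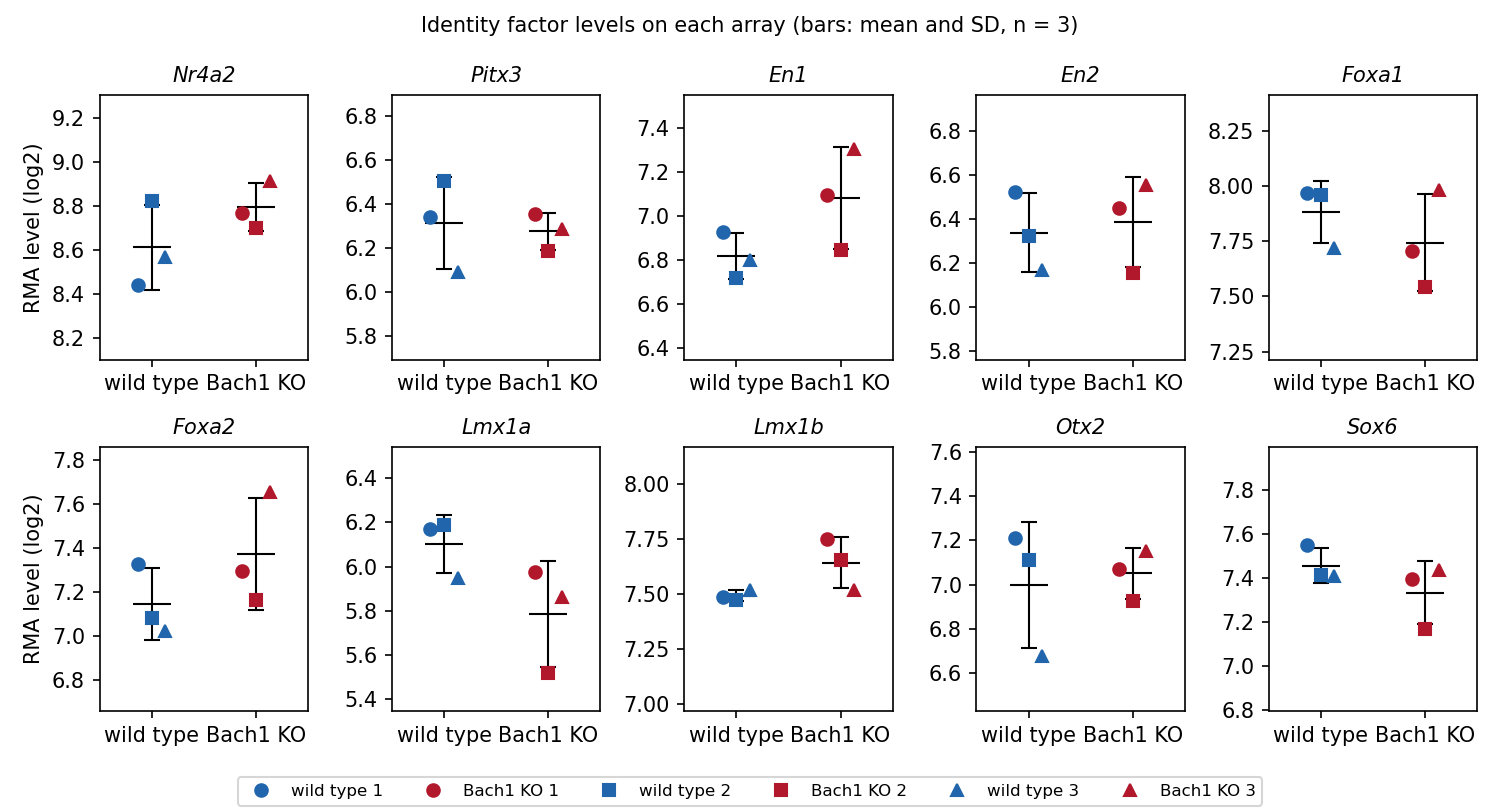
RMA level (log2) of each identity factor on each array, wild type in blue and Bach1 KO in red, with circles, squares and triangles for replicates 1, 2 and 3 and bars for the mean and SD (n = 3). Each panel spans the same width in log2 units around its own mean; the groups overlap in every panel except Lmx1b, whose replicates 3 both read 7.52.

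For each of the 3 paralog pairs, the difference between the partners did not overlap between the groups, although none of the 6 genes passed alone. These differences were examined after the levels had been seen, and their direction was chosen then. A within-array difference is free of any shift common to the whole array. Relative to the wild-type mean, Foxa2 minus Foxa1 was 0.33, 0.36 and 0.41 on the knockout-labelled and 0.099, -0.14 and 0.039 on the wild-type arrays. Lmx1b minus Lmx1a was 0.38, 0.75 and 0.27 against -0.072, -0.11 and 0.18. En1 minus En2 was 0.17, 0.21 and 0.27 against -0.075, -0.082 and 0.16, so the closest 2 arrays of opposite groups nearly met. In all 3 pairs every knockout-labelled array lay above every wild-type array. Over all pairs of genes 14.2% had differences that did not overlap between the groups, in either direction. The fold change of the first partner exceeded that of the second by 0.37 for Foxa2, 0.47 for Lmx1b and 0.22 for En1 on the log2 scale. A two-sided exact permutation test gave p = 0.10 for each pair, the smallest p that 3 against 3 arrays allow, and 0.10 after adjustment over the 3. With pairs and direction chosen from the same values, this is a description of these arrays.

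**Figure D3:**
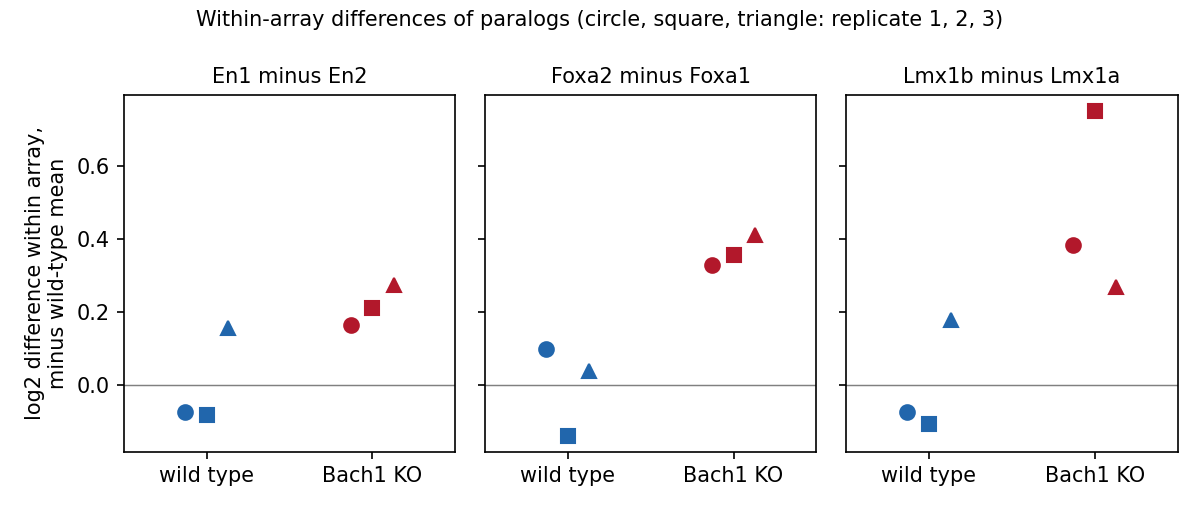
Difference of the log2 levels of 2 paralogs within each array, minus its wild-type mean, for wild type (blue) and Bach1 KO (red), with circles, squares and triangles for replicates 1, 2 and 3. The knockout-labelled arrays lie above the wild-type arrays in each panel, with the widest gap for Foxa2 minus Foxa1 and hardly any for En1 minus En2.

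Arrays of the same genotype differed from each other in a way that most of the identity factors shared. Within the knockout-labelled group, replicate 2 had the lowest value for 9 of 10 members, all except Lmx1b, and for 38.7% of all genes. Replicate 3 had the highest value for 7 of them, and for 36.3% of all genes. Among wild-type arrays, replicate 3 was the lowest for 7 of 10, against 34.7% of all genes, and replicate 1 the highest for 6, against 37.5%. On knockout-labelled replicate 2 the score of cortex and hippocampus markers, the mean over 8 genes of the log2 level minus its mean over the arrays, was the highest of the 6 arrays at 0.42, and that of mature oligodendrocyte markers the lowest at -0.19. Scores of oligodendrocyte precursors (-0.19), endothelial and mural cells (-0.21), astrocytes (-0.052), microglia (-0.060) and cerebellum (-0.058) were also lowest there. Those of serotonin neuron, subthalamic and hypothalamic, striatal and choroid plexus markers were not. For 10 factors of midbrain GABA, red nucleus and motor neurons the score was 0.087, -0.17 and 0.27 against 0.065, -0.13 and -0.12. The part of any of these in the low values there was not tested. In this bulk tissue, fewer dopamine neurons, less RNA per neuron and a different share of neighbouring tissue cannot be told apart.

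**Figure D4:**
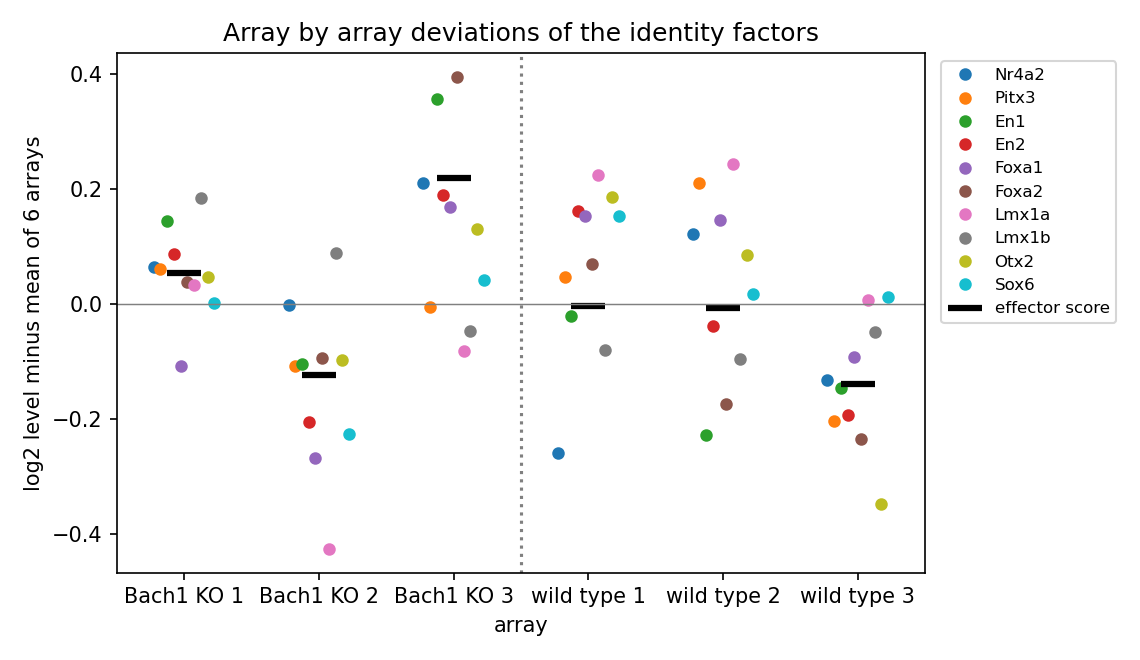
Log2 level minus the mean of 6 arrays (vertical axis) for each identity factor (coloured points) on each array, with a black bar for the mean of the same quantity over 20 dopamine neuron effector genes. Most points lie below 0 on Bach1 KO replicate 2 and wild-type replicate 3, where the effector score is -0.12 and -0.14, and most lie above it on Bach1 KO replicate 3, where the score is 0.22.

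Dopamine neuron effector genes, here enzymes, transporters, receptors and other marker genes such as Calb1, Sncg and Cck, were followed as a list of 20. All were measured. Limma called 0 of 20 in either direction, while 18 had higher and 2 lower means on the knockout-labelled arrays, where 46.9% of all genes were higher. Their median log2 fold change was 0.13. The 20 genes share arrays and cells, so their directions are not independent of each other. Th encodes tyrosine hydroxylase, which limits the rate at which dopamine is made, and was at 11.39, 11.02 and 11.49 against 11.23, 11.21 and 11.05. The dopamine transporter gene Slc6a3 was at 12.07, 11.87 and 12.17 against 11.98, 11.9985 and 11.69. In both genes knockout-labelled replicate 3 was highest, and knockout-labelled replicate 2 and wild-type replicate 3 were the lowest 2. Not all of the 20 had this order. Kcnj6 and Cck were highest on knockout-labelled replicate 2, at 7.41 and 11.56. Gfra1, Dlk1 and Calb1 were highest on wild-type replicate 3, at 9.15, 9.89 and 10.85. The log2 fold changes were 0.14 for Th, 0.15 for Slc6a3, 0.17 for the vesicular transporter Slc18a2 and 0.26 for the decarboxylase Ddc. For the receptors Drd2 and Ret and the channel subunit Kcnj6 they were 0.044, 0.13 and 0.17. Aldh1a1, an aldehyde dehydrogenase of the ventral nigra, was at 11.74, 11.64 and 11.74 against 11.54, 11.47 and 11.33, with a log2 fold change of 0.26 (limma, adjusted p = 0.564, with 0.044 to 0.48 as the 95% interval). Calb1, a calcium-binding protein of the dorsal tier and the ventral tegmental area, was at 10.33, 10.37 and 10.46 against 10.49, 10.67 and 10.85, a log2 fold change of -0.28 (adjusted p = 0.598). The groups did not overlap for either gene and neither passed. They were 1 of 20 above and 1 of 20 below, beside 7.4% and 6.86% of all probe sets.

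The effector score of an array, the mean over the 20 genes of the log2 level minus that gene's mean over the arrays, contains no identity factor. It was 0.054, -0.12 and 0.22 on knockout-labelled replicates 1 to 3 and -0.0034, -0.0065 and -0.14 on wild-type replicates 1 to 3. The score was thus highest on knockout-labelled replicate 3, and on knockout-labelled replicate 2 it was below wild-type replicates 1 and 2. Over the 6 arrays Foxa2 followed it with Pearson r = 0.903 (exact permutation p = 0.0208) and Spearman rho = 0.886 (exact p = 0.0333). En2 had r = 0.865 (exact p = 0.0194) with rho = 0.886 (exact p = 0.0333), and En1 had r = 0.854 (exact p = 0.0347) with rho = 0.829 (exact p = 0.0583). These 3 of 10 members reached an exact p under 0.05, as did 3.99% of all probe sets. After adjustment over the 10 relations the values were 0.104 for Foxa2 and En2 and 0.116 for En1, and 1.0 over all probe sets. So no member passed. Without the 2 arrays farthest from the median score, knockout-labelled replicate 3 and wild-type replicate 3, r was 0.448 for Foxa2, 0.833 for En2 and 0.519 for En1. Without knockout-labelled replicate 3 alone r was 0.681 for Foxa2, 0.882 for En2 and 0.569 for En1. Without wild-type replicate 3 alone it was 0.868, 0.812 and 0.847. On the remaining 5 arrays 0 of 10 members had an exact p under 0.05 in either case, and 1 without knockout-labelled replicate 2.

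The other members followed the score less closely over all 6 arrays. Pearson r was 0.705 for Otx2, 0.635 for Foxa1, 0.608 for Nr4a2, 0.450 for Pitx3, 0.428 for Sox6, 0.208 for Lmx1a and -0.051 for Lmx1b, with exact permutation p-values of 0.111 to 0.879. Their Spearman rho was between 0.086 and 0.714, with exact p-values of 0.136 to 0.919. Within genotypes the picture differed for some. With the group means removed, r was 0.979 for Foxa1, 0.854 for Sox6, 0.786 for Lmx1a and -0.586 for Lmx1b, while it was 0.886 for Foxa2, 0.894 for En2 and 0.852 for En1. The knockout-labelled means of Foxa1, Lmx1a and Sox6 were lower and that of the score was higher (0.050 against -0.050), so their pooled r is below the one within genotypes.

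Among the members themselves, 34 of 45 pairs had a Pearson r above 0 over the 6 arrays, and the median r was 0.37. With the group means removed 37 pairs were above 0 and the median was 0.56. En1 and Foxa2 were the closest pair (r = 0.936, exact permutation p = 0.00833, rho = 0.886 with exact p = 0.0333), and r was 0.826 without the 2 arrays farthest from the median of En1. Lmx1a and Sox6 followed with r = 0.871 (exact p = 0.0528, rho = 0.486 with exact p = 0.356), and both were lowest on knockout-labelled replicate 2. Without the 2 farthest arrays their r was 0.806. En2 and Otx2 had r = 0.840 (exact p = 0.0208, rho = 0.829 with exact p = 0.0583), and 0.577 without the 2 farthest arrays. The 4 pairs with an exact p under 0.05 were En1 with Foxa2, Foxa1 with Sox6, En2 with Otx2 and En2 with Foxa2. Such counts were not made over all pairs of genes, so those of the members have no reference. The 45 pairs also share genes and arrays and are not independent. Without knockout-labelled replicate 2, or without replicate 3, there were 2 such pairs. After adjustment over 45 pairs 0 passed, with a smallest adjusted p = 0.25. A single pair at the smallest p that 720 pairings of 6 arrays can give would have an adjusted p of 0.0625.

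Lmx1b was in the 3 pairs with the lowest r. Its r was -0.728 with Foxa1 (exact permutation p = 0.103, rho = -0.543 with exact p = 0.297), -0.528 with Sox6 (exact p = 0.258, rho = -0.657 with exact p = 0.175) and -0.512 with Lmx1a (exact p = 0.285, rho = -0.657 with exact p = 0.175). Adjusted p-values were 0.472, 0.727 and 0.740. Without the 2 farthest arrays the values were -0.721, -0.282 and -0.188. With the group means removed they were -0.685, -0.228 and 0.024. For Lmx1b with Lmx1a, r was 0.140 over the 3 knockout-labelled arrays and -0.970 over the 3 wild-type arrays. These paralogs also had opposite differences between genotypes, and the part of those in the negative pooled value was not tested.

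**Figure D5:**
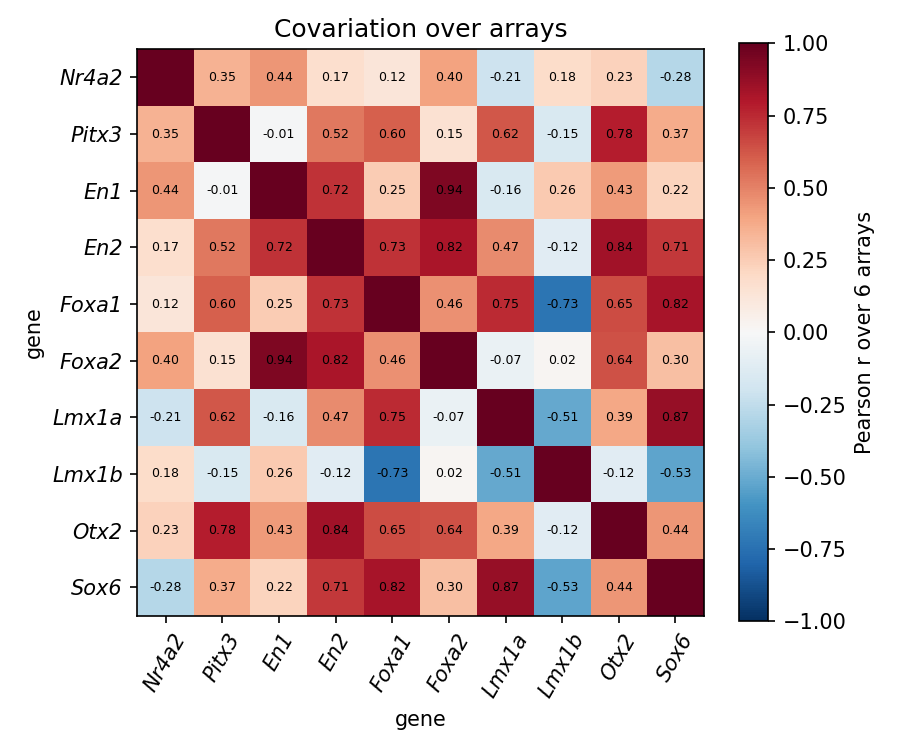
Pearson r over 6 arrays for each pair of identity factors, in colour from -1 (blue) to 1 (red) and as a number. En1 with Foxa2 reads 0.94, the row of Lmx1b holds the lowest values, and 34 of the 45 pairs are above 0.

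Some of these factors are also made by other cells of the region, so marker lists of those cells were read beside them. Serotonin neurons express En1, En2 and Lmx1b. The list of 7 of their markers holds Gata2 and Gata3, and Gata3 is also a factor of midbrain GABA neurons. Of the 7 markers 5 were measured. All 5 had higher means on the knockout-labelled arrays, where 46.9% of all genes were higher, and limma called 0. The median of their log2 fold changes was 0.33. Only 3 of the 5 had a level above 5.07, the limit under which signals were taken as dim. The serotonin transporter gene Slc6a4 was at 5.27, 4.90 and 5.36 against 4.64, 4.66 and 4.50, a dim signal with a log2 fold change of 0.58 (limma, adjusted p = 0.512). The score of that list was 0.16, -0.051 and 0.37 on the knockout-labelled and -0.098, -0.14 and -0.24 on the wild-type arrays. En1 had r = 0.949 with it (exact permutation p = 0.0111, adjusted over 11 such relations 0.0840, rho = 0.886 with exact p = 0.0333), and 0.419 without the 2 farthest arrays. For En2 r was 0.669 and for Lmx1b 0.327. Factors of midbrain GABA, red nucleus and motor neurons also had mostly higher means, 7 of 10 with 3 lower. Whether the score follows serotonin neurons alone, and how much of the En1 signal came from these neurons, was not tested.

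Foxa1, Lmx1a and Lmx1b are also made in subthalamic and posterior hypothalamic regions. A list of subthalamic and hypothalamic markers, with the peptide genes Hcrt, Pmch, Avp, Oxt and Trh among them, had 12 of 13 genes measured. Of these 3 were higher and 9 lower, with 0 called and a median log2 fold change of -0.33. Its score is an unscaled mean, so the most variable genes weigh most and it is not specific to subthalamic tissue. Barhl2, a homeodomain factor gene of the subthalamic region, was at 7.82, 7.80 and 7.65 against 8.01, 8.10 and 8.04, a log2 fold change of -0.29 (limma, adjusted p = 0.533). It had the smallest p among the lower genes of the list. Irx5 had the smallest among the higher ones, at 7.15, 7.11 and 7.28 against 7.15, 7.01 and 7.02. Its log2 fold change was 0.12 (limma, adjusted p = 0.742). The score was -0.030, -0.20 and -0.67 under the knockout label and -0.11, 0.26 and 0.75 under the wild-type label. Foxa2 had r = -0.883 with it (exact permutation p = 0.0264, adjusted p = 0.0968, rho = -0.829 with exact p = 0.0583) and -0.563 without the 2 farthest arrays. For Foxa1, Lmx1b and Lmx1a r was -0.240, -0.165 and 0.314. The amount of neighbouring tissue in each sample was not measured otherwise, and its part in the Foxa2 values was not tested.

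Sox6 is expressed in oligodendrocyte precursors as well. Their markers gave 4 higher and 5 lower of 9 with 0 called, and mature oligodendrocyte markers 3 higher and 6 lower of 9 with 0 called. Scores of the mature list were 0.082, -0.19 and 0.048 against 0.11, -0.013 and -0.029, lowest on knockout-labelled replicate 2 like Sox6 itself. Sox6 had r = 0.915 with that score (exact permutation p = 0.0153, adjusted p = 0.0840, rho = 0.657 with exact p = 0.175). It had r = 0.835 with the precursor score (exact p = 0.0708, rho = 0.371 with exact p = 0.497). Without the 2 farthest arrays, knockout-labelled replicate 2 and wild-type replicate 1 or 3, these were -0.038 and -0.072. Without knockout-labelled replicate 2 alone they were 0.615 and 0.250, and with any other array left out at least 0.895 and 0.836. With the group means removed they were 0.973 and 0.926. Otx2, which choroid plexus also makes, had r = -0.021 with the choroid score, and En2, which cerebellar neurons make, had r = 0.450 with the cerebellar score. The 7 relations of this kind given without a p had exact permutation p-values of 0.154 to 0.975.

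The gene most like each member over the 6 arrays was looked up among 15780 genes above the 40th percentile of level. With so few arrays high values are common, and between 0.374% and 3.12% of these genes had r over 0.9 with a given member. Foxa2 was most like Gata3 (r = 0.998), a zinc finger factor of midbrain GABA and of serotonin neurons, and Gm10714 (0.993). Sox6 was most like Opalin (0.996), a myelin gene, and Chil1 (0.995), and En1 like Nostrin (0.992) and Sc5d (0.991). Nr4a2 was closest to Thnsl1 (0.996) and Ssbp3 (0.993), Pitx3 to Mettl17 (0.995) and Gtpbp2 (0.989), and Otx2 to Mat2b (0.980) and Ndufa9 (0.978). En2 came with Cyc1 (0.994) and Bola3 (0.990), and Foxa1 with Polr3c (0.991) and Gabarap (0.990). Lmx1a was nearest to Mia3 (0.994) and Fam149a (0.992), and Lmx1b to LOC100040974 (0.990) and Hoxd3 (0.989).

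Other regulators of the region did not pass either. Of 25 further factors and signals of dopamine neuron development 22 were measured, with 13 higher and 9 lower, 0 called and a median log2 fold change of 0.021. Fgf8, the signal of the midbrain and hindbrain boundary, was at 5.54, 5.63 and 5.46 against 5.34, 4.97 and 5.37 (log2 fold change 0.32, limma, adjusted p = 0.605). Wnt5a, a Wnt ligand of the floor plate, was at 6.24, 6.22 and 6.41 against 6.41, 6.99 and 6.47 (log2 fold change -0.33, adjusted p = 0.651). Of 12 factors of midbrain GABA, red nucleus and motor neurons 10 were measured, with 7 higher and 3 lower, 0 called and a median log2 fold change of 0.22. Pou4f1 (Brn3a), a factor of the red nucleus, was at 5.99, 5.49 and 6.93 against 5.89, 5.42 and 5.33, highest on knockout-labelled replicate 3. Isl1, a factor of motor neurons, was at 7.06, 6.91 and 6.15 against 7.07, 7.21 and 7.56, lowest on that same array. The log2 fold changes were 0.59 and -0.58 (adjusted p = 0.707 and 0.625). Among the remaining marker lists, limma called 0 genes in each. Higher and lower means numbered 5 and 4 of 9 for choroid plexus, 4 and 5 of 9 for cerebellum and 4 and 4 of 8 for cortex and hippocampus. Astrocyte markers split 5 and 5 of 10 and microglia markers 7 and 2 of 9, while all 7 striatal and all 10 endothelial and mural cell markers had lower means. Median log2 fold changes of the last 2 lists were -0.061 and -0.15, against -0.0098 over all 22180 genes.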

How the data were processed

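Biotin-labelled cRNA of ventral midbrain was read on Affymetrix mouse gene arrays (per the labels' protocols). The deposited values are log2 levels, 1 per probe set and array. The submitters' processing notes name RMA. The log2 scale was read from the values (0.745 to 14.1), and version and build are not given in the sources used here. RMA evens out the arrays and compresses dim signals. Depth does not apply; the 3 arrays per group limit the precision. There were 0 further columns of sample values.

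Genes came from the platform annotation, which gave 1 gene for 23521 of 41345 probe sets, and symbols were updated through Entrez identifiers to RefSeq (23328 matched). Per gene the probe set with the highest mean was used. All probe sets were tested together with limma 3.58.1 in R 4.3.3 (lmFit, eBayes, 6 arrays, no covariate, Benjamini-Hochberg over all probe sets, threshold 0.05), after a test on simulated data. Correlations over arrays used exact permutation over 720 pairings, two-sided, in Python 3.11.15 with numpy 2.4.6. The rule for named genes took all members, 9 effector genes and the gene with the smallest p in each direction of every other list. It also took the 3 highest and lowest pairs and the 2 genes most like each member. For choroid plexus, cerebellum, cortex, striatum, glia and vessels the smallest-p genes are not given here, and 0 genes of these lists were called. The members, lists and tests were chosen with earlier results of these data known. Replicate numbers were not treated as pairs in the main fit. Deviations of same-numbered arrays correlated at 0.086, -0.033 and 0.039, and those of other arrays of opposite groups at -0.083 to 0.046. With 3 arrays per group this cannot exclude a pairing.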

Additional observations from a re-analysis of the deposited data

How the results depend on the processing

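Over 13 other settings for each member (renewed quantile normalization, median centring, dim probe sets left out, trended and robust variances, array weights, the replicate block, each array left out, and knockout-labelled replicate 2 with wild-type replicate 1 left out), 0 members and 0 effector genes passed in any; the smallest adjusted p of a member was 0.536. Leaving out dim probe sets, other variances and the block cannot alter a fold change; in the other 10 settings 92 of 100 log2 fold changes kept their direction. The direction turned for Pitx3, which was -0.15 to 0.061 with single arrays left out and 0.024 without that pair of arrays, for En2 (-0.038 to 0.16) and Otx2 (-0.11 to 0.16) with single arrays left out, and for Foxa1 (0.0029) and Sox6 (0.0063) without that pair. The causes were not tested. With the replicate block 0 probe sets were called instead of 3, as with any array left out, so that Hmox1 lost its call there, and no member's call changed. Other probe sets per gene could not be tried, as each member has 1. Paralog differences, added after the values were seen, kept their sign in the 9 settings that can alter them, from 0.18 to 0.29 for En1 minus En2, 0.30 to 0.42 for Foxa2 minus Foxa1 and 0.29 to 0.57 for Lmx1b minus Lmx1a. Adjusted over the 10 relations, 1 member, Foxa1, followed the effector score once group means were removed, instead of 0; the residuals are not freely exchangeable, so that p is approximate. Correlations were run in 9 alternatives, in which 0 member pairs passed; with 5 arrays a single pair could not, as its smallest adjusted p would be 0.375. Pairs with an exact p under 0.05 numbered 2 to 10 instead of 4, and members following the score 0 to 5 instead of 3.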
